A study of Mus musculus with 12 samples.

Results

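Respiratory complex I oxidises NADH and pumps protons across the inner mitochondrial membrane. It has a matrix arm, which carries a flavin and a chain of iron-sulphur clusters to ubiquinone, and a membrane arm, which pumps. Its core subunits hold these cofactors and the pump, and the accessory subunits around them are needed for assembly and stability. The genes described here are 35 nuclear-encoded complex I subunits, of 52661 genes in the expression table: 6 core subunits of the matrix arm, 9 accessory subunits of the matrix arm, 19 accessory subunits of the membrane arm, and Ndufab1, the mitochondrial acyl carrier protein, which binds complex I through accessory subunits. They were chosen by name, with the fall of Ndufs1 on knockdown already known.

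Polyadenylated RNA was sequenced from Neuro-2A (N2A) cells, a mouse neuroblastoma line. A pair of stable Flp-In lines each carried a doxycycline-inducible, siRNA-resistant cDNA of the splicing factor Puf60, which includes exon 5 in pEx5 cells and lacks it in mEx5 cells. In each line there were 3 groups of 2 libraries, A and B: induction (Puf60 siRNA, then doxycycline at 2 µg/ml for 24 h), knockdown (Puf60 siRNA, no doxycycline) and control (non-targeting siRNA, no doxycycline), all with siRNA at 15 nM and harvest 48 h after transfection. The control libraries therefore carry the integrated cDNA too. The duplicates are described as biological, but the labels do not say whether they came from separate cultures, so each p-value covers the spread among the libraries alone, which may be technical. One label field of the doxycycline libraries calls them uninduced; the treatment field was followed.

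The 12 libraries held 22908930 to 41494994 exon-exon junction reads. Puf60, the targeted gene, had 618.2 and 631.4 CPM (its junction reads, scaled for the depth of the library) in pEx5 induction and 622.8 and 577.2 CPM in mEx5 induction. It had 58.4 and 64.5 CPM in pEx5 knockdown and 75.2 and 71.8 CPM in mEx5 knockdown, against 322.0 and 297.0 CPM in pEx5 control and 302.7 and 304.7 CPM in mEx5 control. Of 11 N2A markers, 9 were above 1 RPKM in each group by the authors' group values. The summed group values of the fibroblast, leukocyte and endothelial markers stayed at or below 1.31 RPKM, and those of the glial markers were 4.87 to 6.63 RPKM with Sox10 listed at 0.

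All 35 genes were expressed in each group. In the authors' group values per length (RPKM), their median was 213.0 in pEx5 induction, 193.0 in pEx5 knockdown and 208.0 in pEx5 control, and 177.0, 171.0 and 180.0 in the mEx5 induction, knockdown and control groups. Levels per length spanned 27.8 RPKM for Ndufa11 to 711.68 RPKM for Ndufb8 in pEx5 control; both are accessory subunits of the membrane arm. Ndufs1 had the widest spread over the 6 groups, its highest group value being 2.01 times its lowest, and Ndufs7 came next at 1.47 times. In both knockdown groups Ndufs1 was the gene ranked 4 from the lowest of the 35, whereas it ranked 11 in pEx5 control and 9 in mEx5 control. These values have 1 number per group and no error.

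**Figure D1:**
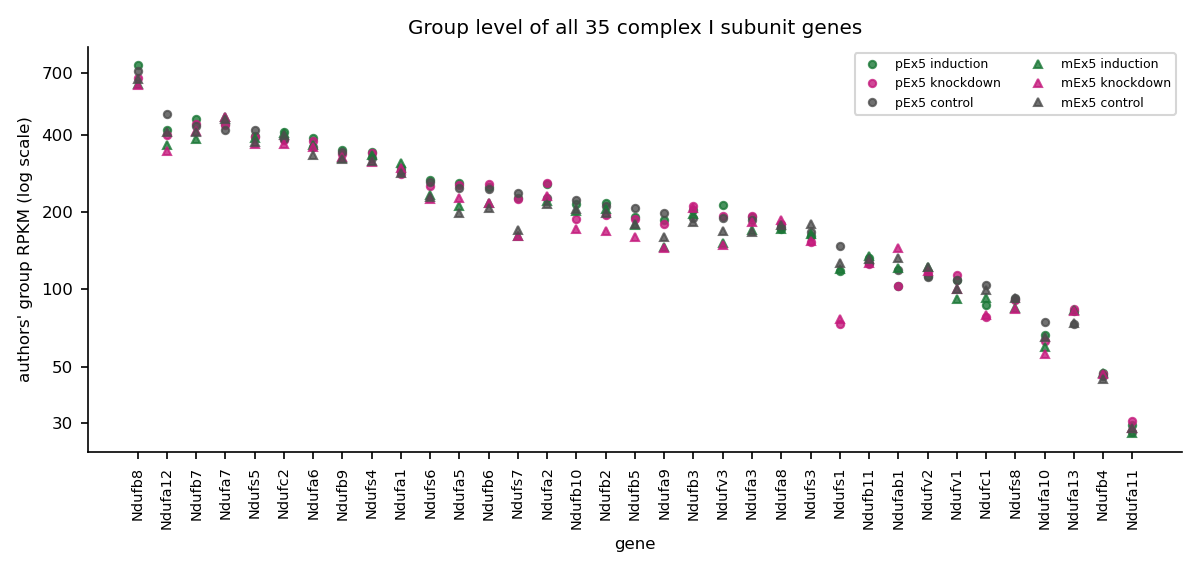
Authors' group RPKM on a log axis for the 35 complex I subunit genes, ordered by level in pEx5 control; circles are pEx5 and triangles mEx5, green induction, magenta knockdown and grey control. The points of most genes overlap, and the 2 magenta points of Ndufs1 (73.39 and 76.28 RPKM) sit apart from its other 4.

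Which subunits moved on Puf60 depletion was asked with junction reads, which give a value per library. The reads across the exon-exon junctions of each gene's introns were summed, scaled by the median of ratios to CPM and tested with limma over 10363 genes, and a gene was called where its p, adjusted by Benjamini-Hochberg, was under 0.05. This measure covered 30 of the 35 genes; Ndufa12, Ndufb4, Ndufs3, Ndufs5 and Ndufs6 had no intron events in the splicing table. In bulk RNA, fewer cells and less RNA per cell cannot be told apart. With knockdown in both lines against control, 7 of the 30 genes rose and 3 fell, 33.3% called, against 51.8% of all genes tested, of which 26.5% rose and 25.3% fell. The median log2 change of the 30 was 0.024, and that of all genes was 0.011. Apart from Ndufs1, every tested gene lay between a log2 change of -0.24 and 0.42. Under total-read or upper-quartile scaling the counts were 12 higher and 3 lower, while over all genes the higher share of the calls was 57.8% or 59.7%, against 51.2% in the main scaling. Without replicate B of mEx5 knockdown 6 genes were higher and 7 lower, without either replicate of pEx5 induction 7 and 5, and without replicate A of mEx5 knockdown 10 and 3.

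**Figure D2:**
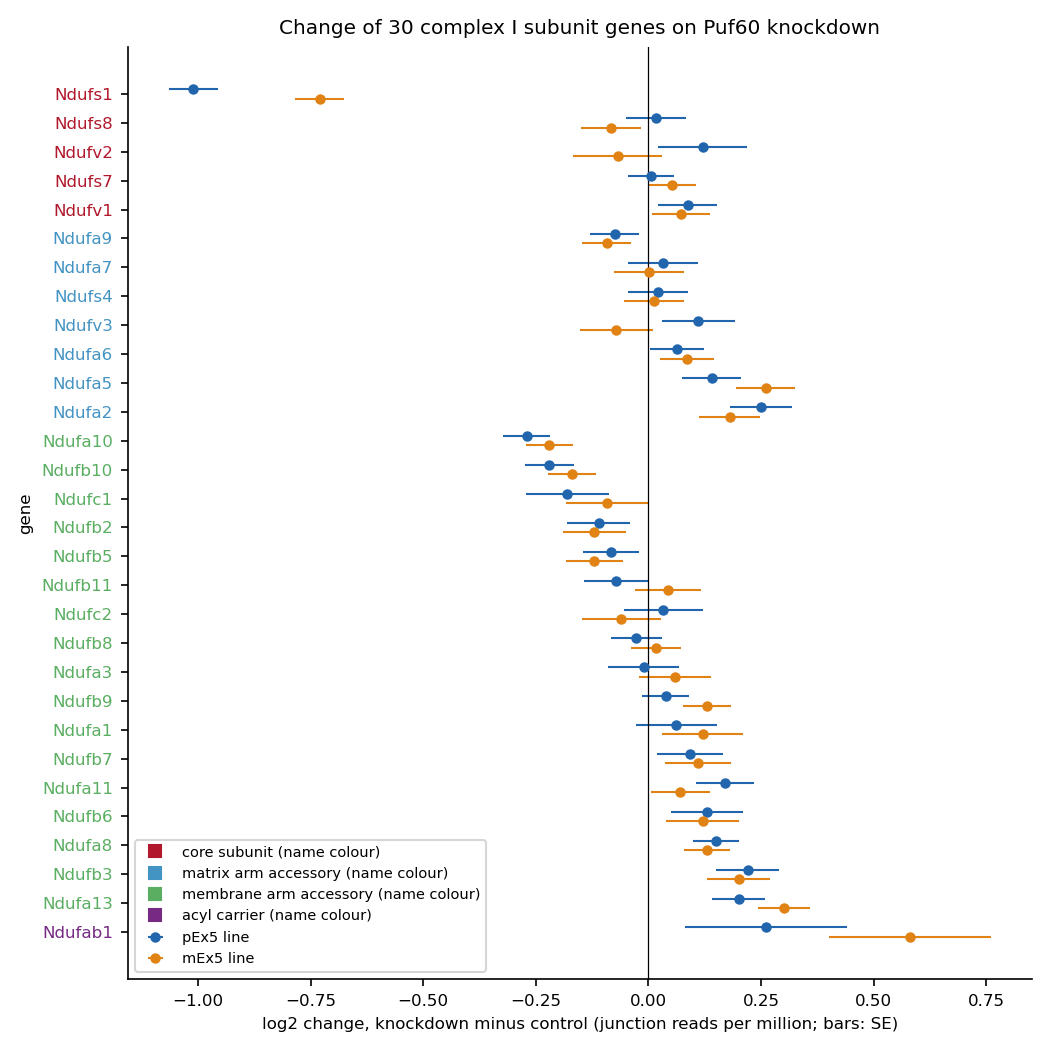
Log2 change of junction-read CPM, knockdown minus control, for the 30 tested genes, with pEx5 in blue, mEx5 in orange and bars of 1 SE; name colours give the role. Ndufs1 lies at -1.01 and -0.73, well left of the other 29 genes.

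Ndufs1, the largest core subunit, carries iron-sulphur clusters at the NADH end of the matrix arm. It had 274.7 and 280.7 CPM in pEx5 knockdown and 284.1 and 309.7 CPM in mEx5 knockdown, against 539.2 and 582.0 CPM in pEx5 control and 499.0 and 483.8 CPM in mEx5 control. All 4 knockdown libraries lay below all 4 control libraries. The log2 change over both lines was -0.87 ± 0.039 (SE, adjusted p = 8.84e-13), a level 0.547 times control, and it ranked 122 of 10363 genes counted from the most negative change. The change was -1.01 in pEx5 and -0.73 in mEx5, and the difference between the lines of -0.28 ± 0.077 did not pass the test (adjusted p = 0.358).

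Doxycycline was given to every induction library and to no other, so drug and cDNA cannot be told apart in any induction comparison. Ndufs1 was higher with induction in each line. It had 452.0 and 479.0 CPM in pEx5 induction and 497.7 and 489.3 CPM in mEx5 induction, all above the knockdown libraries of the same line. Induction minus knockdown was 0.74 ± 0.055 in pEx5 (adjusted p = 1.21e-08) and 0.73 ± 0.055 in mEx5 (adjusted p = 1.18e-08), and the difference of the 2 induction effects was 0.01 ± 0.077 (adjusted p = 0.976). Against control, Ndufs1 was lower with induction in pEx5 by a log2 change of -0.27 ± 0.055 (adjusted p = 0.00108). In mEx5 the change was 0.0063 ± 0.055 (adjusted p = 0.956). These 2 values were not tested against each other. Ndufs1 was also higher in pEx5 control than in mEx5 control, by a log2 difference of 0.19. In the authors' deposited table the log2 fold change on knockdown was -1.0 in pEx5 (FDR 1.54e-64) and -0.74 in mEx5 (FDR 3.33e-35).

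The fall of Ndufs1 ran along the measured part of the transcript. All 17 measured introns, numbers 2 to 18 of transcript Ndufs1-201, had fewer junction reads on knockdown, with log2 changes over both lines from -1.01 to -0.8 and a median of -0.87. The most negative value was at intron 2, of 707 nt, and the introns next to it and near the 3′ end, numbers 3 and 17, were both at -0.93. With induction all 17 were above knockdown in each line, by 0.59 to 0.89 in pEx5 and by 0.61 to 0.87 in mEx5. These are descriptions per intron, without a test.

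**Figure D3:**
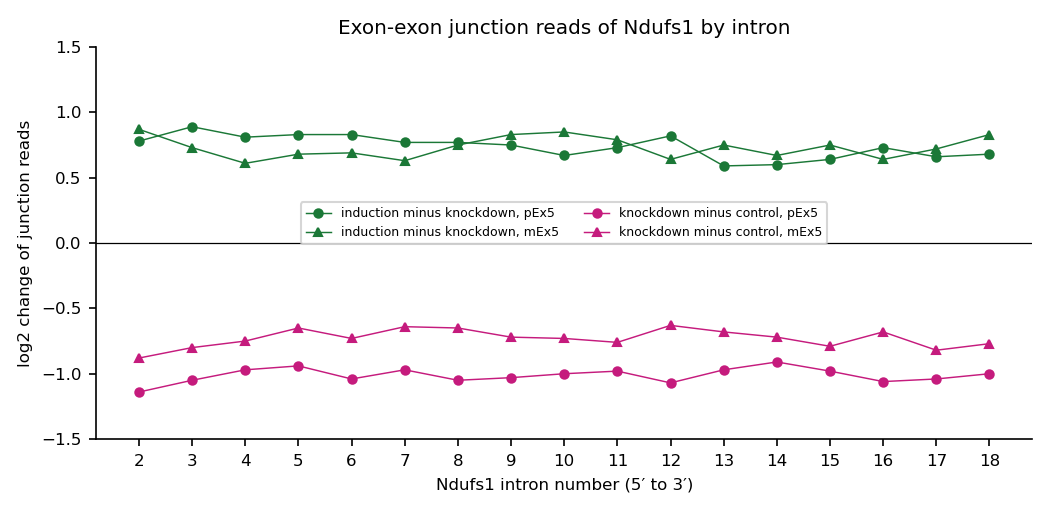
Log2 change of exon-exon junction reads at each of 17 Ndufs1 introns from the 5′ to the 3′ end, induction minus knockdown in green and knockdown minus control in magenta, circles for pEx5 and triangles for mEx5. Each magenta point is below 0 and each green point above it, and pEx5 knockdown points run from -1.14 to -0.91.

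The junctions of the 92-nt exon that follows intron 2 also showed skipping. Percent spliced in (PSI) is the share of junction reads that include an exon, site or intron. The exon is exon 3 of 19 of Ndufs1-201 and wholly coding, at chr1:63170050-63170141 on the minus strand (mm10, GENCODE M21). Shown first below with 15 bases on each side and the exon in capitals, it is followed by the sequence that skipping would give, from 15 bases before the new junction to the first in-frame stop, which is in capitals. The same pair of lines is given for the 82-nt exon 6 of Ndufs1, at chr1:63164949-63165030 on the minus strand, and for the 50-nt exon 2 of 4 of Ndufa7-201, at chr17:33825601-33825650 on the plus strand. These 3 are the coding exons of these genes, not a multiple of 3 in length, that passed 2 comparisons in each line singly. They were lower on knockdown and higher with induction, in the test with no limit on mean PSI described below.
Ndufs1 92-nt exon included: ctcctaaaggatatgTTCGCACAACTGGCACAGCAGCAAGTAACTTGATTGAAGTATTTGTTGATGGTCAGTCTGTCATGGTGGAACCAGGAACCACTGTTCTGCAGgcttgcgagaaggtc
Ndufs1 92-nt exon skipped: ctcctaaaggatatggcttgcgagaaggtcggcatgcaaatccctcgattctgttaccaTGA
Ndufs1 82-nt exon included: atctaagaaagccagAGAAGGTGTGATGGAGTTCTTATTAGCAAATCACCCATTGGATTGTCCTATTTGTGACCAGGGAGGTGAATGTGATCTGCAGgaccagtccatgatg
Ndufs1 82-nt exon skipped: atctaagaaagccaggaccagtccaTGA
Ndufa7 50-nt exon included: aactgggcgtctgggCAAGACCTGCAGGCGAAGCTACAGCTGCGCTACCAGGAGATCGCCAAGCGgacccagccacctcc
Ndufa7 50-nt exon skipped: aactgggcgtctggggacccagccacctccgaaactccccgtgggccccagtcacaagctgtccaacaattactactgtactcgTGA

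Read from the annotated start codon, the Ndufs1 product without the 92-nt exon would stop after 35 codons, against 727 in the annotated frame, with the stop beginning 44 bases past the new junction and ending 1892 bases before the last exon junction. Without the 82-nt exon it would stop after 116 codons. The Ndufa7 product would stop after 40 codons, against 113, and its stop would end 78 bases before the last exon junction. For the 116-nt exon of Ndufa6, whose induction changes did not pass, the stop would lie in the last exon, after 72 codons against 131. Whether skipped transcripts are degraded or translated was not measured.

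With induction the 92-nt exon had a PSI of 99.4 and 98.9 in pEx5 and 99.5 and 98.2 in mEx5. It was at 87.7 and 91.5 in pEx5 knockdown and 92.5 and 91.1 in mEx5 knockdown, against 99.2 and 99.1 in pEx5 control and 98.6 and 98.3 in mEx5 control. The knockdown and control libraries did not overlap in either line. The induction libraries lay above each knockdown library and within about 1 point of control. The difference on knockdown was -8.12 points over both lines (adjusted p = 0.0016) and that on induction 8.28 points (adjusted p = 0.00494), on 1060 to 2842 reads per library. In pEx5 alone the adjusted p was 0.00616 on knockdown and 0.0285 on induction. In mEx5 alone it was 0.037 and 0.0494, close to the threshold. Because its mean PSI is above 95, the exon entered only the test with no limit on mean PSI, over 222055 events, and its difference stayed under the 10 points that the main call asks for. In that wider test 28 of 315 events of these genes passed at an adjusted p under 0.05 alone, a reading added after the data were seen, against 4.32% of all events; 13 of the 28 were among the 52 events of Ndufs1. Shares in the wider test are not matched for reads per event, and events with more reads pass more easily. On induction 11 of the 315 passed, against 1.84% of all events. Within single lines, 16 passed on knockdown in pEx5 and 12 in mEx5, against 2.15% and 1.27% of all events, and 6 passed on induction in each line, against 0.603% in pEx5 and 0.867% in mEx5. The authors' deposited table called the 92-nt exon changed in both knockdowns and both inductions, with no stated criterion.

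Among the 13 Ndufs1 events, 6 of 20 exons were lower on knockdown and none higher, and 4 of 17 introns were more retained and none less; several share junctions and are not independent. Over all genes 4.79% of exons were lower and 2.4% of introns more retained. With induction the 82-nt exon had a PSI of 98.9 and 98.3 in pEx5 and 99.7 in both mEx5 libraries. It was at 94.6 and 95.2 in pEx5 knockdown and 97.2 and 97.3 in mEx5 knockdown, against 99.5 and 99.2 in pEx5 control and 99.3 and 99.0 in mEx5 control. The knockdown libraries lay below both other groups of their line. The difference was -3.19 points on knockdown (adjusted p = 0.000355) and 3.08 points on induction (adjusted p = 0.00127). The 88-nt intron after it, intron 6, was more retained, at 1.6 and 2.3 in pEx5 knockdown and 1.02 and 1.46 in mEx5 knockdown, against 0.24 and 0.37 in pEx5 control and 0.22 and 0.13 in mEx5 control (1.35 points, adjusted p = 0.00171). Introns 2, 18 and 12 differed by only 0.243, 0.357 and 0.877 points (adjusted p = 0.0462, 0.0246 and 0.0413). None of these passed in either line alone. Retention is a share of reads, so it also depends on the spliced reads, which fell. The 77-nt exon 5 and the 129-nt exon 12 differed by -1.85 and -1.38 points over both lines (adjusted p = 0.00831 and 0.0038). Both passed in pEx5 alone, at -2.77 and -1.54 points (adjusted p = 0.0148 and 0.0151). Neither passed in mEx5 alone, at -0.93 and -1.21 points (adjusted p = 0.213 and 0.0635).

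A 104-nt exon near the 5′ end of Ndufs1 behaved differently on induction. It is exon 2 of Ndufs1-206, a retained-intron transcript without a coding frame. With induction its PSI was 16.6 and 16.3 in pEx5 and 19.4 and 20.3 in mEx5. It was 17.2 and 18.5 in pEx5 knockdown and 16.4 and 17.0 in mEx5 knockdown, against 27.2 and 27.8 in pEx5 control and 24.9 and 25.4 in mEx5 control, a difference of -9.06 points (adjusted p = 2.74e-05). The induction libraries too lay below each control library. Induction minus knockdown was 0.843 points over both lines (adjusted p = 0.657). By line the sign differed, at -1.4 points in pEx5 (adjusted p = 0.625) and 3.08 points in mEx5 (adjusted p = 0.209).

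Among the other core subunits, none of the 4 tested passed on knockdown in both lines. Ndufv1, which binds the flavin and NADH, had a log2 change of 0.079 ± 0.046 (adjusted p = 0.158). Ndufv2 was at 0.024 ± 0.07, Ndufs7 at 0.029 ± 0.037 and Ndufs8 at -0.033 ± 0.047, all 3 carriers of iron-sulphur clusters. Ndufv1 passed the test under total-read scaling and under upper-quartile scaling. For Ndufs3, which had no intron events, the authors' deposited table gave -0.078 in pEx5 (FDR 0.288) and -0.17 in mEx5 (FDR 0.00855).

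Of the 7 matrix arm accessory subunits tested, Ndufa2 and Ndufa5 rose and none fell. Ndufa2, which has a thioredoxin-like fold, had 118.9 and 127.0 CPM in pEx5 knockdown and 102.6 and 117.1 CPM in mEx5 knockdown, against 105.4 and 101.7 CPM in pEx5 control and 95.4 and 98.7 CPM in mEx5 control. The groups did not overlap within a line, and the change was 0.21 ± 0.048 (adjusted p = 0.00101). Ndufa5 had a change of 0.2 ± 0.047 (adjusted p = 0.00141), and its knockdown libraries, at 195.3 and 209.0 CPM in pEx5 and 175.4 and 183.9 CPM in mEx5, lay above their controls at 173.2 and 194.4 CPM and 144.2 and 155.7 CPM.

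Of the 17 membrane arm accessory subunits tested, 4 rose and 2 fell. Ndufa10, which resembles nucleoside kinases in fold, had 240.1 and 240.4 CPM in pEx5 knockdown and 221.2 and 218.8 CPM in mEx5 knockdown, against 280.9 and 297.8 CPM in pEx5 control and 266.5 and 245.3 CPM in mEx5 control. The change was -0.24 ± 0.037 (adjusted p = 1.74e-05). Ndufb10, a subunit of the distal part of the arm, had 189.9 and 191.3 CPM in pEx5 knockdown and 172.8 and 183.0 CPM in mEx5 knockdown, against 215.0 and 229.8 CPM in pEx5 control and 204.8 and 195.5 CPM in mEx5 control, a change of -0.2 ± 0.038 (adjusted p = 0.000276). Neither gene's knockdown libraries overlapped the controls of the same line.

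Ndufa13, also known as Grim-19, rose by 0.25 ± 0.041 (adjusted p = 4.05e-05). It had 159.7 and 175.1 CPM in pEx5 knockdown and 179.5 and 185.2 CPM in mEx5 knockdown, against 145.9 and 145.0 CPM in pEx5 control and 148.8 and 148.2 CPM in mEx5 control. Ndufb3, a small subunit of the arm, had 118.0 and 126.4 CPM in pEx5 knockdown and 120.5 and 118.9 CPM in mEx5 knockdown, against 95.8 and 114.0 CPM in pEx5 control and 104.3 and 103.9 CPM in mEx5 control, and rose by 0.21 ± 0.049 (adjusted p = 0.00124). For both genes the knockdown libraries lay above all controls. Ndufa8 rose by 0.14 ± 0.036 (adjusted p = 0.00266) and Ndufa11 by 0.12 ± 0.046 (adjusted p = 0.0321). The Ndufa11 call was lost without replicate A or B of pEx5 knockdown, replicate B of pEx5 control, replicate A of mEx5 control or replicate B of mEx5 knockdown, with adjusted p up to 0.143, and both it and the Ndufa8 call were lost with the median over introns (adjusted p = 0.0675 and 0.0556).

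**Figure D4:**
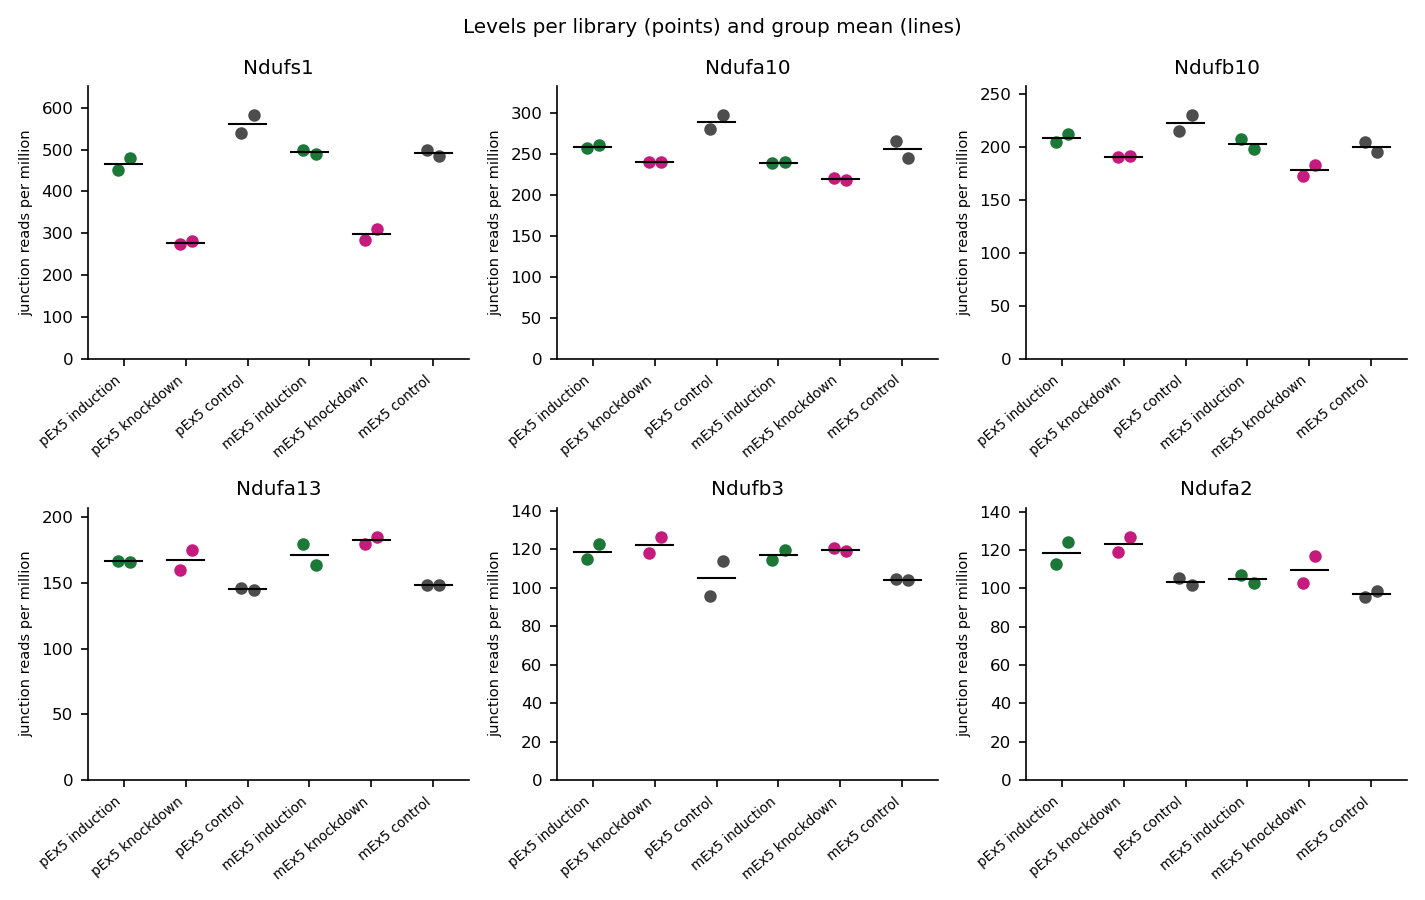
Junction-read CPM in each of the 12 libraries for 6 subunit genes, with points for libraries, lines for group means, and green, magenta and grey for induction, knockdown and control. Ndufs1 falls to a mean of 277.7 in pEx5 knockdown and 296.9 in mEx5 knockdown, against 560.6 and 491.4 in control, while the other 5 genes move far less.

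Ndufab1 rested on the junction reads of 1 intron, 50 to 147 per library. It had 3.98 and 4.02 CPM in pEx5 knockdown and 3.53 and 3.61 CPM in mEx5 knockdown, against 3.5 and 3.16 CPM in pEx5 control and 2.34 and 2.39 CPM in mEx5 control, a change of 0.42 ± 0.13 (adjusted p = 0.00966). The call was lost with reads of all event kinds, a setting added after the data were seen, at 0.31 (adjusted p = 0.142). In the authors' deposited table Ndufab1 was at -0.2 in pEx5 (FDR 0.719) and 0.16 in mEx5 (FDR 0.786), so the change of this 1 junction was not seen in the authors' value for the gene.

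Within single lines the same 3 genes, Ndufs1, Ndufa10 and Ndufb10, fell in each, and 5 rose in each line, Ndufa13, Ndufa2 and Ndufb3 in both. That is 26.7% of the 30 genes called in each line, against 39.0% of all genes in pEx5 (19.5% higher and 19.5% lower) and 35.9% in mEx5 (17.6% higher and 18.3% lower). Without replicate B of pEx5 knockdown only the 3 lower calls were left in pEx5. In mEx5, Ndufs1 and Ndufa13 alone were left without replicate A of the control, and 5 genes without its replicate B. No tested gene passed for a difference in knockdown effect between the lines, against 0.0289% of all genes. Of the 30, 1 had an unadjusted p under 0.05, Ndufs1 (-0.28 ± 0.077). With 2 libraries per group, not passing does not show that the lines respond alike. The authors' deposited table, at an FDR under 0.05 in each line with the same sign, called Ndufa13 and Ndufb3 higher and Ndufa10, Ndufb10 and Ndufs1 lower, 5 of 35 genes, against 23.8% of all genes it tested. In pEx5 alone the authors' deposited table called 4 higher and 4 lower, against 32.7% of all genes, and in mEx5 alone 3 higher and 4 lower, against 30.7%.

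On induction against knockdown, Ndufs1 rose and Ndufab1 fell in each line, and mEx5 had 3 further calls. Ndufab1 had 2.59 and 2.38 CPM in pEx5 induction and 2.24 and 2.12 CPM in mEx5 induction, below its knockdown libraries, with changes of -0.67 ± 0.18 and -0.69 ± 0.18 (adjusted p = 0.0116 and 0.00813). This fall rested on the same 1 junction with few reads. In the authors' deposited table Ndufab1 was at -0.021 in pEx5 and -0.27 in mEx5, and neither passed. In mEx5, Ndufb10 rose by 0.19 ± 0.054 (adjusted p = 0.0144) and Ndufb2 by 0.21 ± 0.07 (adjusted p = 0.0364), and Ndufv1 changed by -0.22 ± 0.065 (adjusted p = 0.0161). The share called was 6.67% of the 30 genes in pEx5, against 22.0% of all genes (12.7% higher and 9.27% lower), and 16.7% in mEx5, against 25.7% (13.3% higher and 12.5% lower). For Ndufa10 the induction change was 0.11 ± 0.052 in pEx5 (adjusted p = 0.144) and 0.12 ± 0.052 in mEx5 (adjusted p = 0.0863), and Ndufa13 was at -0.008 ± 0.058 and -0.09 ± 0.058 (adjusted p = 0.942 and 0.28). No tested gene passed for a difference in induction effect between the lines, against 0.753% of all genes. None of the 30 had an unadjusted p under 0.05. Without replicate A or B of pEx5 knockdown, or replicate B of pEx5 induction, 1 gene was called in pEx5, and without replicate B of mEx5 induction 3 were called in mEx5. The authors' deposited table called Ndufs1 alone in pEx5, against 19.3% of all genes, and Ndufb10, Ndufc1 and Ndufs1 higher and Ndufv1 lower in mEx5, against 19.9%.

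Against control, induction left 5 genes called in pEx5, 16.7% of the 30 against 29.2% of all genes (15.1% higher and 14.1% lower): Ndufs1 and Ndufa10 lower, and Ndufa11, Ndufa13 and Ndufa2 higher. In mEx5 it left Ndufa13 (0.21 ± 0.058, adjusted p = 0.0146) and Ndufa5 (0.2 ± 0.066, adjusted p = 0.0345) higher, 6.67% against 21.4% of all genes, of which 10.3% were higher and 11.1% lower. The pEx5 count was 2 without either induction replicate and 3 without either control replicate; the mEx5 count was 0 without replicate A of the control and 1 without its replicate B. Induction and knockdown are both set against the same control libraries. Knockdown minus control and induction minus knockdown share the knockdown libraries of each line, so a change and its return are not independent.

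The lines themselves differed. In control libraries 8 of the 30 genes were higher in pEx5 than in mEx5 and none was lower, 26.7% called against 27.4% of all genes (14.0% higher and 13.3% lower). Ndufs7, a core subunit with an iron-sulphur cluster, had 219.4 and 213.3 CPM in pEx5 control, against 154.2 and 157.3 CPM in mEx5 control, a log2 difference of 0.47 ± 0.052 (adjusted p = 1.08e-06). Its knockdown libraries showed the same offset, with 211.2 and 223.3 CPM in pEx5 and 158.2 and 164.9 CPM in mEx5. The others were Ndufa5 (0.29), Ndufa9 (0.28), Ndufb6 (0.27), Ndufb5 (0.22), Ndufs1 (0.19), Ndufa10 (0.18) and Ndufb10 (0.15). The Ndufs1 difference did not pass under upper-quartile scaling (adjusted p = 0.0643) or without replicate B of pEx5 control or of mEx5 control (adjusted p = 0.15 and 0.115). Under total-read or upper-quartile scaling 4 were higher and Ndufa7 was lower in pEx5, and 35.3% or 36.0% of all genes called were the higher ones, against 51.3% in the main scaling. Without replicate B of pEx5 control only Ndufa9 and Ndufs7 were left, and 4 genes without replicate A or B of mEx5 control. The authors' deposited table called 10 of 35 genes higher and none lower in pEx5 control, against 24.2% of all genes. Each line is 1 construct, so line and construct cannot be told apart.

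In the main splicing test, with a mean PSI of 5 to 95 and a call at 10 points, 15 events of these genes were tested and 1 was called, against 17.5% of 22767 events; on induction 0 were called, against 11.5%, while 2 passed at an adjusted p under 0.05 alone. Within single lines 1 event was called on knockdown in pEx5 and 0 in mEx5, against 15.2% and 12.9% of all events, and 0 on induction in either line, against 7.29% in pEx5 and 10.4% in mEx5. The called event was an alternative 3′ splice site of Ndufa12, a matrix arm subunit, that adds 15 nt. With induction its PSI was 16.8 and 29.4 in pEx5 and 44.4 and 25.0 in mEx5. It was 20.2 and 21.6 in pEx5 knockdown and 22.1 and 19.1 in mEx5 knockdown, against 43.7 and 44.4 in pEx5 control and 46.8 and 32.8 in mEx5 control, a difference of -21.2 points (adjusted p = 0.00154). It rested on 47 to 257 reads per library, and in each line the 2 induction libraries lay far apart. The reads at this event, the only ones for the gene in the splicing table, rose with a log2 change of 1.29 ± 0.18 (adjusted p = 1.25e-05), at 257 and 222 reads in pEx5 knockdown and 131 and 146 in mEx5 knockdown, against 103 and 99 in pEx5 control and 47 and 67 in mEx5 control. In the authors' deposited table the gene itself was at -0.19 in pEx5 (FDR 0.0981) and -0.22 in mEx5 (FDR 0.0546).

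**Figure D5:**
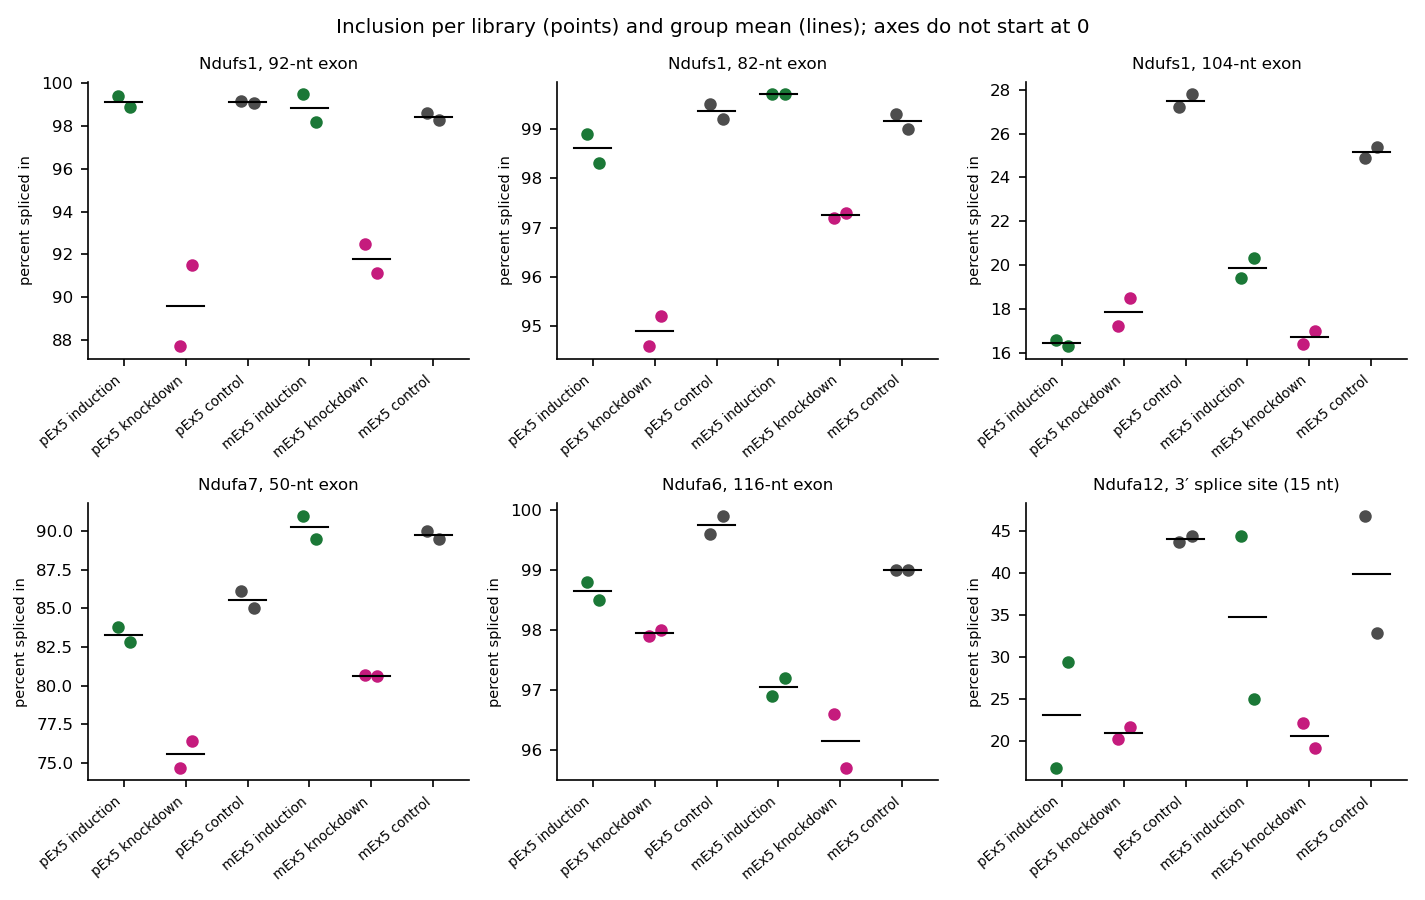
Percent spliced in per library for 5 exons and 1 alternative 3′ splice site, with points for libraries, lines for group means, and green, magenta and grey for induction, knockdown and control; the axes do not start at 0. For the 92-nt and 82-nt exons of Ndufs1 and the 50-nt exon of Ndufa7 the knockdown points lie below both other groups of the line. For the 104-nt exon of Ndufs1 the induction points lie below the control points.

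In all, 6 of the 15 events passed at an adjusted p under 0.05 with any size of difference, against 30.6% of all events. The 50-nt exon of Ndufa7, a matrix arm subunit, had a PSI of 83.8 and 82.8 in pEx5 induction and 91.0 and 89.5 in mEx5 induction. It was at 74.7 and 76.4 in pEx5 knockdown and 80.7 and 80.6 in mEx5 knockdown, against 86.1 and 85.0 in pEx5 control and 90.0 and 89.5 in mEx5 control. The differences were -9.54 points on knockdown (adjusted p = 1.88e-06) and 8.69 points on induction (adjusted p = 8.61e-06), on 4055 to 6301 reads per library, and the Ndufa7 level itself had a log2 change on knockdown of 0.017 ± 0.055 (adjusted p = 0.816). The exons of 79 nt in Ndufs4 and Ndufs7 differed by -2.82 and -3.13 points (adjusted p = 0.00845 and 0.00988), and neither passed in the test with no limit on mean PSI (adjusted p = 0.0734 and 0.0949). A 3′ splice site of Ndufa11 differed by 4.5 points (adjusted p = 1.11e-06).

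Of the exons of these genes in the wider test, 10 of 97 were lower on knockdown and 1 was higher, and 8 of 123 introns were more retained and none less. Over all genes the same test found 4.79% of 98340 exons lower and 0.737% higher, and 2.4% of 92829 introns more retained and 0.524% less, so the calls of exons and introns lean the same way outside these genes. The 116-nt exon 2 of Ndufa6, at chr15:82350979-82351094, had a PSI of 97.9 and 98.0 in pEx5 knockdown and 96.6 and 95.7 in mEx5 knockdown, against 99.6 and 99.9 in pEx5 control and 99.0 in both mEx5 control libraries (-2.36 points, adjusted p = 0.000933). A 493-nt intron of Ndufa3 was at 6.62 and 6.59 in pEx5 knockdown and 7.0 and 8.37 in mEx5 knockdown, against 2.44 and 3.83 in pEx5 control and 3.05 and 2.77 in mEx5 control (4.12 points, adjusted p = 0.00735), while the level of the gene had a log2 change of 0.024 ± 0.056 (adjusted p = 0.734). For Ndufa10, which fell, the only event that passed was an intron of 1825 nt at 0.94 points (adjusted p = 0.0207), and Ndufb10 had none.

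The other genes of the respiratory chain are counted on knockdown in both lines, where 26.5% of all genes tested rose and 25.3% fell. The 7 mitochondrially encoded complex I subunits have no introns; in the authors' deposited table none passed in both lines, with median log2 fold changes of -0.26 in pEx5 and -0.23 in mEx5. Of 11 complex I assembly factors tested, 3 rose and 1 fell, led by Ndufaf1 (0.5 ± 0.068, adjusted p = 4.89e-06) and Tmem186 (0.38 ± 0.12, adjusted p = 0.00994), with a median of 0.035. In complex II, 3 of 5 fell and none rose, led by the assembly factor Sdhaf2 (-0.81 ± 0.062, adjusted p = 2.11e-09) and the flavoprotein Sdha (-0.28 ± 0.034, adjusted p = 1.03e-06), with a median of -0.1.

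In complex III, 2 of 7 rose, Uqcr10 (0.42 ± 0.065, adjusted p = 2.05e-05) and Uqcrq (0.21 ± 0.048, adjusted p = 0.00102), with a median of 0.04. In complex IV, 1 of 8 fell, Cox7a2 (-0.21 ± 0.047, adjusted p = 0.000989), with a median of -0.016. Of 12 ATP synthase genes, 2 rose and 6 fell, led by Atp5k (0.29 ± 0.058, adjusted p = 0.000287) and Atp5o (-0.28 ± 0.048, adjusted p = 6.04e-05), with a median of -0.056. Atp5l, an ATP synthase subunit with no intron events, was not tested on junction reads and is named after its values were seen: in the authors' deposited table it had 440.83 RPKM in pEx5 knockdown and 453.92 in mEx5 knockdown, against 883.35 in pEx5 control and 797.96 in mEx5 control, with log2 fold changes of -1.01 (FDR 1.9e-35) and -0.83 (FDR 4.56e-24). On induction the authors' deposited table gave it 0.61 in pEx5 (FDR 6.48e-13) and 0.85 in mEx5 (FDR 1.91e-24). Of 12 iron-sulphur cluster assembly genes, 5 rose and 1 fell, led by the ferredoxin reductase Fdxr (0.5 ± 0.048, adjusted p = 5.1e-08) and the chaperone Hspa9 (0.32 ± 0.033, adjusted p = 1.38e-07), with a median of 0.19. Of 11 regulators of mitochondrial transcription and biogenesis, 3 rose and 3 fell, led by Yy1 (-0.37 ± 0.047, adjusted p = 2.07e-06) and Polrmt (0.34 ± 0.055, adjusted p = 4.19e-05), with a median of 0.0094. The median of all genes in the same comparison was 0.011.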

How the data were processed

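The members and gene lists were chosen with earlier results of these data known. Per the file headers, the authors deposited a vast-tools table with PSI in percent and a quality text holding the reads of each event in each of 12 libraries; 98.89% of PSI values lay within 0.02 points of those reads. The deposited expression table, for which the submitters' processing notes name Salmon 0.14.1, edgeR and mm10, gives the authors' RPKM per group, with libraries combined, and the authors' log2 fold changes, p-values and FDR for 18600 genes; the authors' True or False splicing calls are a further deposited table. That table has no value per library.

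Whole exon-exon junction reads of each gene's introns were summed and taken to log2 CPM (median-of-ratios scaling, prior count 2, mean of at least 20 reads); limma 3.58.1 in R 4.3.3 fitted 1 coefficient per group over 10363 genes. Junction reads can move with splicing. Events were tested with limma on the natural log odds of inclusion reads (pseudocount 0.5, weights from reads with a variance floor of 0.01), with at least 10 reads in each library and a mean PSI of 5 to 95, leaving out reference alternative sites; a call needed an adjusted p under 0.05 and 10 points. Both tests were tested on simulated data. Adjustment was over all genes or events.

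Named in full were the 6 called subunit genes with the largest changes, Ndufs1, core subunits, genes with a called event, and 2 genes per list; others were chosen after their values were seen. The coordinates of the splicing table are on a build that is not stated and did not match mm10, so exons were placed on GENCODE M21 transcripts by exon and flanking intron lengths, which also gave the sequences.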

Additional observations from a re-analysis of the deposited data

How the results depend on the processing

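Of the changes of single genes and events that were retested, 528 kept their direction and their side of the threshold, 15 lost it, 2 gained it and none reversed. Events that passed only in the test with no limit on mean PSI, such as the 92-nt and 82-nt exons of Ndufs1, were not retested. On knockdown in both lines, 10 genes were called, and 9 to 13 when each library was left out in turn. More were called under total-read or upper-quartile scaling, as given above. The authors' deposited table gave 5 of 35 genes under a different rule, a call in each line with the same sign. The single-line knockdown counts were 8 in each line; pEx5 gave 4 with the median over introns and 3 to 8 when each library was left out, and mEx5 gave 5 with the median over introns or with reads of all event kinds and 2 to 9. Induction against knockdown gave 2 genes in pEx5, 1 with reads of all event kinds or the authors' deposited table and 1 to 2 with libraries left out, and 5 genes in mEx5, 2 with the median over introns, 3 with reads of all event kinds and 3 to 7. Induction against control gave 5 genes in pEx5, 3 with the median over introns and 2 to 6, and 2 in mEx5, 0 with the median over introns and 0 to 3. The control lines gave 8 genes, 5 under total-read or upper-quartile scaling, 4 with the median over introns and 2 to 10. Neither difference between lines gave a call, 0 to 0 with libraries left out. Member events gave 1 call on knockdown, 1 to 2 with libraries left out and 28 with no limit on mean PSI and adjusted p alone, and 0 calls on induction, 0 to 1 and 11. The cause of these differences was not tested. The left-out fits also have fewer samples, and in them a lone library is taken to vary as the other groups do.

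Over all genes the letters A and B paired the libraries weakly at most. Over 15 pairs of groups the deviations of same-lettered libraries correlated by -0.129 to 0.162, with 2 over 0.1. This does not exclude a shift shared by letter in single genes. With the replicate block, knockdown in both lines called 12 genes. Leaving out libraries kept Ndufs1 between -0.9 and -0.84 on knockdown. Under total-read scaling 61.8% of all genes called between pEx5 induction and control were higher, against 51.7% in the main scaling.

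Low read numbers limit Ndufab1 and the Ndufa12 splice site; the 5 genes without intron events were untested for want of such events. The 2 libraries per group limit the precision of each value, and the mean PSI limit of the main splicing test leaves out exons near full inclusion.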
